A study of Rattus norvegicus with 18 samples.

Results

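The glucose transporter Slc2a1 (GLUT1) and 9 enzymes that carry glucose to lactate were examined in rat knee synovium: the hexokinases Hk1 and Hk2, the phosphofructokinase Pfkp, Aldoa, Tpi1, Gapdh, Pgk1, Pkm and Ldha. They were taken as every gene probe whose gene name in the scanner files was one of these 10 symbols, which gave 12 probes out of 28271 kept probes and 10 genes out of 23606 tested. Hk1 and Gapdh had 2 probes each. The samples were knee synovial tissue of male Lewis rats aged 6 to 8 weeks, with 3 single-colour arrays in each of 6 groups. The control rats were normal. AIA rats had adjuvant-induced arthritis, AIA-cold and AIA-hot rats had the arthritis model in a cold or a hot form, and AIA-cold-WTD and AIA-hot-WTD rats had those forms and were given WTD, the classic herbal formula the study is about. The labels do not say how the cold and hot forms were made, nor the dose or length of treatment. They do not say whether an array held 1 rat or a pool, so the p-values measure the spread between these arrays. Arrays are numbered within their group only to name them.

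Glucose enters most cells through facilitative carriers, of which GLUT1 is the widespread basal one. Hexokinase traps it as glucose 6-phosphate, phosphofructokinase commits it to glycolysis, and aldolase and triosephosphate isomerase give the triose phosphate that Gapdh, Pgk1 and Pkm turn into pyruvate with a yield of ATP. Ldha then reduces pyruvate to lactate and restores the NAD that Gapdh needs. Many of these genes are known targets of the hypoxia-inducible factor HIF-1 and of Myc, and inflamed joint lining is known as an oxygen-poor tissue with a high demand for glucose.

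The 60-base probes of 5 enzymes of the lower pathway are shown because a level on the array is the signal at these strands. Each is given 5′ to 3′ in lower case with its place on the rat build rn4 as the scanner files give it. The Ldha probe lies at chr1:97407674-97407733 on the plus strand and the Pgk1 probe at chrX:94336783-94336842 on the plus strand. The Tpi1 probe at chr4:160934662-160935137 and the first Gapdh probe at chr4:161282440-161282609, both on the minus strand, span 476 and 170 bases of genome and so cross a splice junction. The second Gapdh probe lies at chr4:161282655-161282714 and the Aldoa probe at chr1:185972062-185972121, both on the minus strand.
Ldha probe: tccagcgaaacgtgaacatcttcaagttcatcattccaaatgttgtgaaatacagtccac
Pgk1 probe: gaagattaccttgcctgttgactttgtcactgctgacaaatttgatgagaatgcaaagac
Tpi1 probe: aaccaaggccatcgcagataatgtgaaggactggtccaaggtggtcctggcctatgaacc
Aldoa probe: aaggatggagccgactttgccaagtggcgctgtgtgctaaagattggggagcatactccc
Gapdh probe 1: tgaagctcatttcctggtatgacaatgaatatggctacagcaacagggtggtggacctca
Gapdh probe 2: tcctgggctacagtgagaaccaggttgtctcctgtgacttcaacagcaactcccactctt
The scanner files list 4 accessions for each of these probes, and these may name the same transcript. Processed copies of glycolytic genes are common in rodent genomes, so these levels may include RNA from near-identical copies. The Slc2a1 probe lies at chr5:139718779-139718838, the Pfkp probe at chr17:74822635-74822694 and the Pkm probe at chr8:63507957-63508016, all on the plus strand. The files mark both Hk1 probes as unmapped.

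Upstream sequence is shown for Slc2a1 and Ldha, the pair of genes with the largest differences between AIA-cold and control, and for Tpi1, whose levels followed those of Ldha from array to array. Each run holds the 250 bases before the RefSeq transcription start on the assembly GRCr8, 5′ to 3′ along the gene. Capitals mark ACGTG and GCGTG on either strand, the core letters of the known hypoxia response element. The windows are chr5:138002272-138002521 on the plus strand for Slc2a1, chr1:106507842-106508091 on the plus strand for Ldha and chr4:159305089-159305338 on the minus strand for Tpi1.
Slc2a1 upstream: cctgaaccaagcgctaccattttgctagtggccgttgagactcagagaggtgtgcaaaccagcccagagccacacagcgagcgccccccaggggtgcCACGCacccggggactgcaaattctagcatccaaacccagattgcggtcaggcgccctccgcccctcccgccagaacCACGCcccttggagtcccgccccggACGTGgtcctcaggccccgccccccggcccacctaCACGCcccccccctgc
Ldha upstream: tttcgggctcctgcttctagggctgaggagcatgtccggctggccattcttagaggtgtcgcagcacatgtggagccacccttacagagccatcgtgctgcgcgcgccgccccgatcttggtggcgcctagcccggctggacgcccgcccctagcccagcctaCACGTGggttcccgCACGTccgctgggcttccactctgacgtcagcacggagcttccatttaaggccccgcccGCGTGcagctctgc
Tpi1 upstream: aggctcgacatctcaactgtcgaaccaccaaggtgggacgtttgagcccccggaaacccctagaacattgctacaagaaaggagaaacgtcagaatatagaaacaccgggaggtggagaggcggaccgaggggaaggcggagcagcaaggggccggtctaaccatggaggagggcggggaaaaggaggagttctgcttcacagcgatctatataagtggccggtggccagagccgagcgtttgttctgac
The Slc2a1 window held 1 ACGTG and 3 GCGTG. The Ldha window held 3 ACGTG and 1 GCGTG, where a pair of the ACGTG matches are the opposite strands of 1 palindrome. The Tpi1 window held neither. RefSeq starts were matched for 9 of the 10 genes, with 12 windows in all since Hk1 and Aldoa have several starts. At least 1 match lay in 6 of the 12 windows, while Hk2, Pkm and Tpi1 had none. Of all 33469 windows of this length, 16.6% held ACGTG, 25.9% held GCGTG and 36.7% held at least 1 of them.

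Values below are log2 signals relative to the 75th percentile of their array, so 1 unit is a doubling and 0 is a fairly bright probe. Levels of different genes are not set against each other, since probes differ in brightness. Of the 10 genes, 9 were well above background on 18 of 18 arrays. Hk2, the inducible hexokinase of muscle and fat, was well above background on 7 of 18 arrays. It passed the filter on dim probes through AIA-cold, where it was measured on 3 of 3 arrays, against 0 of 3 in control and 0 of 3 in AIA-hot-WTD. Its AIA-cold values of -4.07, -4.11 and -4.13 spanned a part of the range of the control values of -3.77, -4.07 and -4.51, which count as not detected. The lowest signal well above background ranged from -5.25 to -1.86 over the arrays, so no fold is given for Hk2.

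The tissue label was checked against 10 synovial fibroblast genes, whose mean lay between 3.06 and 4.14 on every array. The 9 measured of 10 adipocyte genes were also bright, between 2.22 and 5.44. One array stood apart in signal: control replicate 1 had a 75th percentile of 68.9 intensity units, against 201 to 331 on the other arrays, and 43.3% of its probes were well above background, against 56.4% to 76.5%. Its 11 measured of 14 cartilage genes averaged 5.15, against -2.04 to 1.64 elsewhere. AIA-hot-WTD replicate 3 had the highest mean of the 17 measured of 19 skeletal muscle genes, 2.62 against at most 0.62 elsewhere. The arrays lay on 5 slides, which cut across the groups only in part: slide 1 held the 3 control arrays and AIA replicate 1, slide 2 AIA replicates 2 and 3 with AIA-hot replicates 1 and 2, slide 3 AIA-hot replicate 3 with all AIA-hot-WTD arrays, slide 4 all AIA-cold arrays with AIA-cold-WTD replicate 1, and slide 5 AIA-cold-WTD replicates 2 and 3.

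Slc2a1 was the only one of the 10 genes called in any of the 11 comparisons. It was lower in AIA-cold than in control by a log2 difference of -1.31 (SE 0.21), a level 2.48-fold lower, with a Benjamini-Hochberg adjusted p of 0.024 by limma. In that comparison 0.534% of all genes were called, and 0.292% were called lower. The control arrays read 3.00, 2.68 and 2.78 and the AIA-cold arrays 1.36, 1.73 and 1.45, with no overlap between the groups. In whole tissue, fewer cells that use a gene and less of its RNA per cell cannot be told apart.

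The call rested on few arrays, while the size of the difference moved little. The adjusted p was 0.13 when AIA-cold replicate 1 was left out, 0.066 when replicate 2 of that group was, and 0.0505 without control replicate 1, where the log2 difference was still -1.22. It was 0.12 with the slide as a random block and 0.16 when only the arrays of AIA-cold and control were fitted. The AIA-cold and control arrays share no slide and no chain of slides links them, so for this comparison slide and group cannot be told apart.

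Marker lists of other cell types were followed in the same comparison, with 0 of their genes called by limma. Of the skeletal muscle genes 15 of 17 were below 0 (median log2 difference -1.41), of the cartilage genes 8 of 11 (-0.92) and of the endothelial genes 7 of 7 (-0.39), while 8 of 9 adipocyte genes were above 0 (0.72). The cartilage mean was 5.15 on control replicate 1, against at most -0.27 on the other control arrays and -0.38 to 1.14 in AIA-cold. That array also stood apart in other lists. Its adipocyte mean was 3.14, against 4.65 and 4.99 on the other controls and 3.94 to 5.13 in AIA-cold. Its endothelial mean was 2.27, against 1.00 and 1.06, and 0.90 to 1.13 in AIA-cold. Its macrophage mean was 1.36, against 3.06 and 3.16, and 2.75 to 3.25 in AIA-cold. Blood cell genes were mostly above 0: 6 of 6 erythroid genes (2.16), 5 of 6 neutrophil genes (1.55), 8 of 11 T and NK cell genes (0.57) and 7 of 8 macrophage genes (0.46). Of the synovial fibroblast genes, 7 of 10 were below 0 (-0.27). By limma, 4 of 11 T and NK cell, 4 of 10 synovial fibroblast and 3 of 8 macrophage genes had an unadjusted p under 0.05. At most 1 gene of each other list named here did, against 18.7% of all genes. With the muscle and cartilage means of each array as covariates, the Slc2a1 difference was -1.23 (adjusted p = 0.022 by limma). With the adipocyte mean as a covariate, chosen after seeing the data, it was -1.38 (adjusted p = 0.0036). The part of the other cell types was not tested.

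Slc2a1 was below control in every arthritic group. The AIA arrays read 2.40, 2.08 and 2.12, the AIA-hot arrays 1.64, 1.84 and 2.23, the AIA-hot-WTD arrays 1.80, 1.85 and 1.89, and the AIA-cold-WTD arrays 1.30, 2.06 and 2.06. All 3 control arrays thus lay above all 15 others, a pattern shared by 0.849% of all genes and by no other gene of the 10. Against the same controls, the log2 difference was -0.62 in AIA (adjusted p = 0.76), -0.92 in AIA-hot (0.11), -1.01 in AIA-cold-WTD (0.075) and -0.98 in AIA-hot-WTD (0.071), all by limma. Without AIA-cold-WTD replicate 1 the adjusted p was 0.0496 in AIA-hot and 0.030 in AIA-hot-WTD. These comparisons share their control arrays and are not independent of one another. In order of the mean, the groups ran from control at 2.82 ± 0.16 (SD, n = 3) through AIA at 2.20 ± 0.18, AIA-hot at 1.90 ± 0.30, AIA-hot-WTD at 1.85 ± 0.05 and AIA-cold-WTD at 1.81 ± 0.44 to AIA-cold at 1.51 ± 0.19. Only the step from control to AIA separated neighbouring groups without overlap of their arrays.

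Slides 1 to 3, and slides 4 and 5, are linked by arrays of 1 group on neighbouring slides, which allows a fit with the slide as a fixed block for 7 of the 11 comparisons. In that fit Slc2a1 kept its direction against control, at -0.42 in AIA, -0.78 in AIA-hot and -1.16 in AIA-hot-WTD, with adjusted p of 0.66, 0.46 and 0.35 by limma. The blocked AIA value is that of AIA replicate 1 alone, which at 2.40 lay below each of the 3 control arrays on slide 1. In AIA-hot minus control and in AIA-hot-WTD minus control, 3 of the 10 genes were below 0 in the blocked fit: Slc2a1, Hk1 and Pfkp. The blocked values there rest on AIA replicate 1, the one array that ties slide 1 to slide 2.

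**Figure D1:**
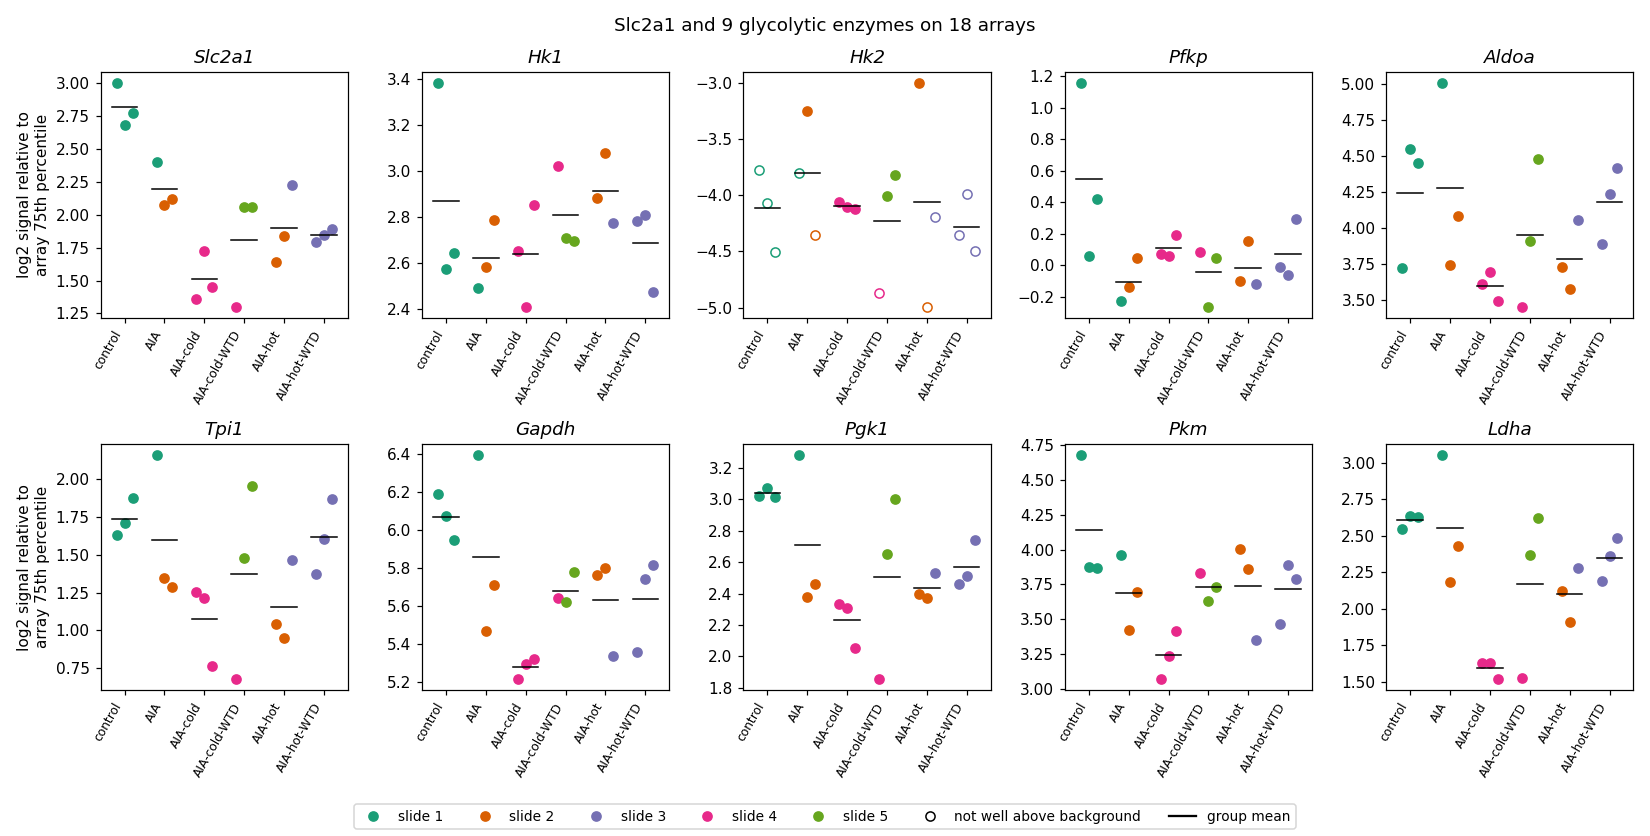
Log2 signal relative to the 75th percentile of the array (vertical axis, a separate range for each gene) of Slc2a1 and 9 enzymes in 6 groups of 3 arrays. Each point is 1 array, coloured by slide, open where the probe was not well above background, and the line is the group mean; the 3 control arrays of Slc2a1 sit between 2.68 and 3.00, above the other 15.

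Among the enzymes of the upper pathway, Hk1, the constitutive hexokinase, showed no call in any comparison. Its control arrays read 3.38, 2.58 and 2.65, the AIA-cold arrays 2.65, 2.41 and 2.85, the AIA arrays 2.49, 2.58 and 2.79 and the AIA-hot arrays 2.88, 3.08 and 2.78. The group ranges overlapped throughout, and the log2 difference between AIA-cold and control was -0.23 (95% confidence interval -0.66 to 0.20). It was 0.028 without control replicate 1. The second Hk1 probe gave -0.32, and its values correlated with those of the first at r = 0.81 over 18 arrays.

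Pfkp, the platelet-type phosphofructokinase, read 1.16, 0.06 and 0.42 on the control arrays and between -0.26 and 0.29 on the other 15. Its log2 difference from control was -0.65 in AIA (adjusted p = 0.76 by limma), -0.44 in AIA-cold (0.30) and -0.57 in AIA-hot (0.32). The AIA arrays at -0.23, -0.14 and 0.05 did not overlap the control arrays, although the nearest AIA and control values differ by little. Without control replicate 1 the AIA-cold difference shrank to -0.13. Control replicate 1 was the highest of the 18 arrays for Slc2a1, Hk1, Pfkp and Pkm, and 30.3% of all genes had their highest value there. It is also the dim array with the high cartilage genes, and the part of either in these values was not tested.

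The 6 enzymes from aldolase to lactate dehydrogenase read lower on every AIA-cold array than on any control array, as did 14.1% of all genes, yet none of the 6 passed the test. Ldha read 2.55, 2.64 and 2.63 in control and 1.63, 1.63 and 1.52 in AIA-cold, a log2 difference of -1.01 (95% confidence interval -1.55 to -0.48, adjusted p = 0.071 by limma) or a level 2.02-fold lower. Pkm, the pyruvate kinase, read 4.67, 3.87 and 3.87 in control and 3.07, 3.24 and 3.42 in AIA-cold, a difference of -0.90 (-1.39 to -0.40, adjusted p = 0.080). Pgk1, the first step that yields ATP, read 3.02, 3.07 and 3.02 against 2.33, 2.31 and 2.05, a difference of -0.81 (-1.36 to -0.25, adjusted p = 0.13). The control and AIA-cold arrays of each of these 3 genes did not overlap. For Ldha the adjusted p was 0.026 without AIA-cold-WTD replicate 1, an array of neither group that adds to the shared estimate of the spread.

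Gapdh read 6.19, 6.07 and 5.95 in control and 5.22, 5.29 and 5.32 in AIA-cold, a log2 difference of -0.79 (-1.24 to -0.35, adjusted p = 0.082 by limma). Its adjusted p was 0.046 without AIA replicate 1. Its second probe gave -0.83, and the 2 probes correlated at r = 0.97 over 18 arrays. Tpi1 read 1.63, 1.71 and 1.88 against 1.25, 1.22 and 0.76, a difference of -0.66 (-1.30 to -0.02, adjusted p = 0.25). Aldoa read 3.72, 4.55 and 4.45 against 3.61, 3.69 and 3.49, a difference of -0.64 (-1.33 to 0.05, adjusted p = 0.30). The gap between the groups was wide for Gapdh and only 0.03 between the nearest Aldoa arrays.

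In AIA-cold minus control, 9 of the 10 genes were below 0, with a median log2 difference of -0.73, against -0.04 over all genes. The remaining gene was Hk2, near background, and the median without it was -0.79. 7 of the 10 were lower in AIA-cold without overlap of the arrays, against 14.1% of all genes, and 6 of the 10 had an unadjusted p under 0.05, against 18.7% of all genes. In AIA-hot minus control, 5 of the 10 were lower without overlap (8.06% of all genes) and the median was -0.48, while 0.0551% of all genes were called. Of these 5, Slc2a1 kept its sign with the slide as a fixed block, and Tpi1, Gapdh, Pgk1 and Ldha were then above 0. In AIA minus control, 2 of the 10, Slc2a1 and Pfkp, were lower without overlap (5.34% of all genes), the median was -0.23, and 0 genes of the whole array were called by limma, with 1484 (6.29%) at an unadjusted p under 0.05 against 2 of the 10. AIA-cold also lay below AIA without overlap for 7 of the 10, against 13.5% of all genes, again with 0 genes called over the whole array by limma and 2135 (9.04%) at an unadjusted p under 0.05 against 3 of the 10. AIA-cold lies on other slides than AIA and AIA-hot too, with no chain between them, so here as well slide and group cannot be told apart. Pfkp was the 1 gene of the 10 higher in AIA-cold than in AIA without overlap (10.7% of all genes). Its nearest AIA-cold and AIA arrays nearly touched, at 0.058 and 0.047. In AIA-hot minus control 3 of the 10 had an unadjusted p under 0.05, against 12.1% of all genes.

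In AIA-cold minus AIA-hot, 0 of the 10 genes were called by limma and 1, Pkm, had an unadjusted p under 0.05, where 0.00847% of all genes were called and 5.49% had such a p. Ldha differed by -0.51, Pkm by -0.49 and Slc2a1 by -0.39 (95% confidence interval -0.83 to 0.05), and 9 of the 10 were below 0. Among the 9 was Hk2, which was near background. Gapdh, Pgk1 and Ldha were lower in AIA-cold without overlap of the arrays, 3 of the 10 against 6.77% of all genes. In AIA-hot minus AIA, 0 of the 10 genes were called and 0 had an unadjusted p under 0.05 by limma, against 5.13% of all genes with such a p. The largest differences there were -0.49 for Aldoa, -0.45 for Ldha and -0.45 for Tpi1, while Slc2a1 differed by -0.30 and Hk1 by 0.29. With the slide as a fixed block, 9 of the 10 genes kept their sign. Slc2a1 was then at -0.36 (unadjusted p = 0.041, adjusted p = 0.37 by limma).

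**Figure D2:**
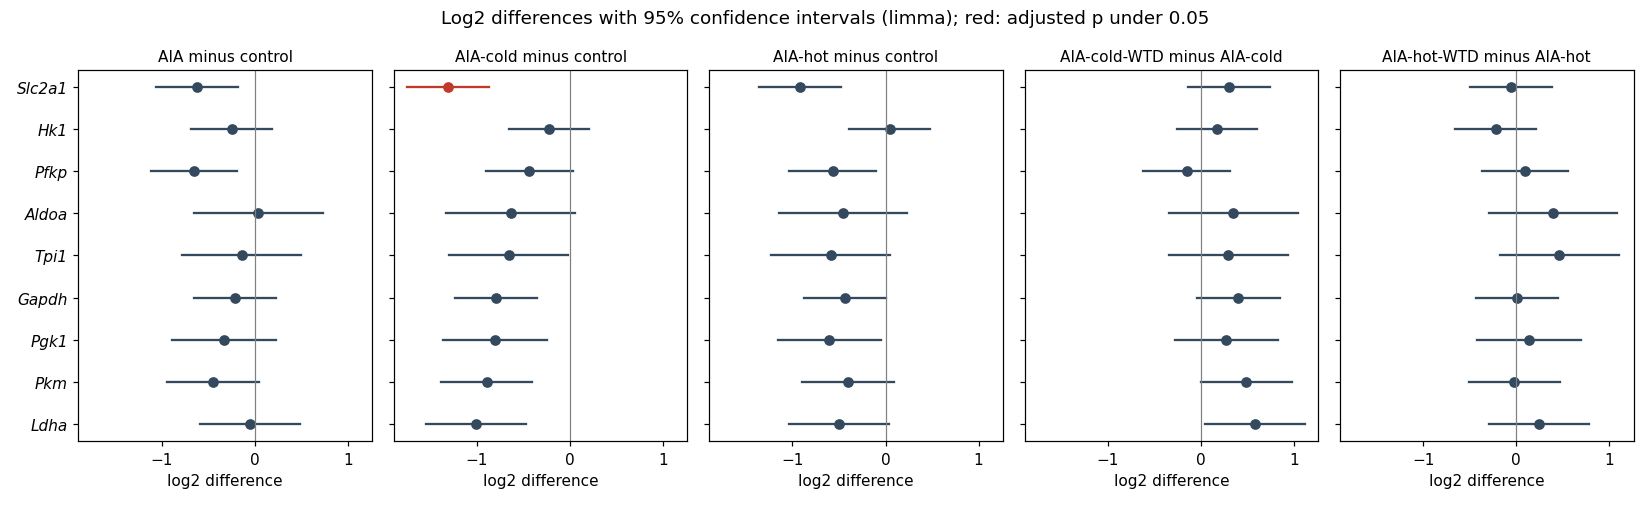
Log2 differences (horizontal axis) of Slc2a1 and 8 enzymes in 5 comparisons, with points for the limma estimate and lines for its 95% confidence interval; Hk2 is left out because it was near background. Only Slc2a1 in AIA-cold minus control, at -1.31, is drawn in red for an adjusted p under 0.05, and the 3 comparisons with control share their control arrays.

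Of the 6 lower enzymes, Ldha, Pgk1, Tpi1 and Aldoa moved as a block from array to array, also within groups. Over 18 arrays, Ldha correlated with Pgk1 at r = 0.92, with Tpi1 at 0.89 and with Aldoa at 0.87. For deviations from the group means, from which differences between groups are removed, the same values were 0.97, 0.94 and 0.87. Slc2a1 followed this block, with r = 0.76 to Ldha and 0.74 to Pgk1 for the deviations. Pkm and Gapdh correlated with each other at 0.85, or 0.73 for the deviations, while the deviations of Pkm correlated with those of Ldha at 0.04, of Tpi1 at -0.10 and of Aldoa at -0.13. Those of Gapdh correlated with Ldha at 0.48 and with Tpi1 at 0.38. Hk1 was negative against the block, with r from -0.51 to Aldoa to -0.18 to Ldha, and from -0.70 to -0.47 for the deviations. Hk1 and Pfkp correlated at 0.57 over 18 arrays and at 0.04 over the 17 arrays without control replicate 1. These correlations describe arrays that share slides and tissue make-up, and they carry no test.

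**Figure D3:**
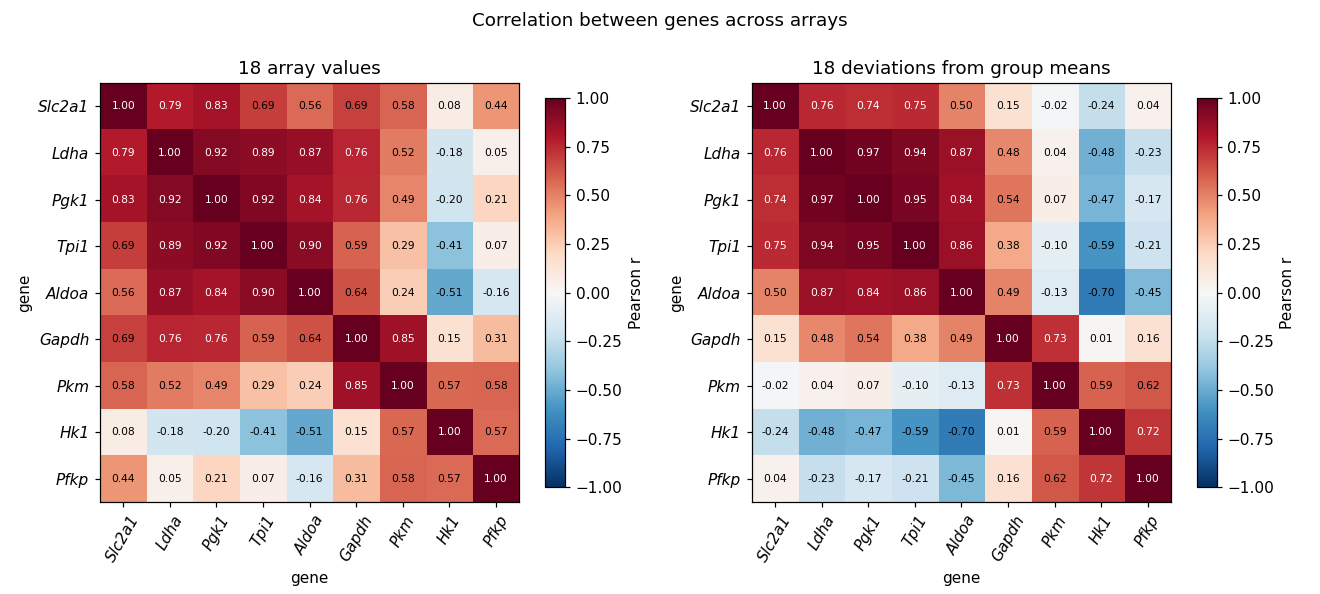
Pearson r between genes (colour and number) over 18 array values on the left and over 18 deviations from the group means on the right, for Slc2a1 and 8 enzymes in the same order on both axes. Ldha, Pgk1, Tpi1 and Aldoa form a block with r from 0.84 to 0.92 on the left and 0.84 to 0.97 on the right, and Hk1 is negative against all 4.

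Ldha and Pgk1 also followed the slides. On slide 4, which held the AIA-cold arrays and 1 AIA-cold-WTD array, Ldha lay between 1.52 and 1.63. It lay between 1.91 and 3.05 on all other slides. Pgk1 likewise lay between 1.86 and 2.33 on slide 4 and from 2.37 upwards elsewhere. Ldha and Pgk1 were the 2 of the 10 genes for which the 4 arrays of slide 4 were all below the other 14, a pattern shared by 0.314% of all genes. Aldoa and Tpi1 were low on slide 4 too, at 3.45 to 3.69 and 0.68 to 1.25, but overlapped slide 2, at 3.57 to 4.08 and 0.95 to 1.34.

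At the other end, AIA replicate 1 was the highest of the 18 arrays for Aldoa, Tpi1, Gapdh, Pgk1 and Ldha, 5 of the 10 genes, against 7.67% of all genes. It is the one AIA array on slide 1, with the controls. Ldha read 3.05 there and 2.19 and 2.43 on the AIA arrays of slide 2. The pooled AIA minus control difference of Ldha was -0.05, while AIA replicate 1 lay 0.45 above the mean of the controls on its own slide. The same held for Aldoa, at 0.04 pooled and 0.77 within slide 1, for Tpi1, at -0.14 and 0.42, and for Pgk1, at -0.33 and 0.24. Slc2a1 was below the controls in both views, at -0.62 and -0.42.

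With slide as a fixed block, the sign turned between the pooled and the blocked fit in AIA-hot minus control for Aldoa (-0.45 pooled, 0.50 blocked), Tpi1 (-0.59, 0.10), Gapdh (-0.44, 0.51), Pgk1 (-0.60, 0.21), Pkm (-0.40, 0.20) and Ldha (-0.50, 0.15). It also turned for Hk1 (0.04, -0.083). Neither fit called any of them. The AIA-hot difference from control is therefore given for these enzymes as a value without a direction.

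**Figure D4:**
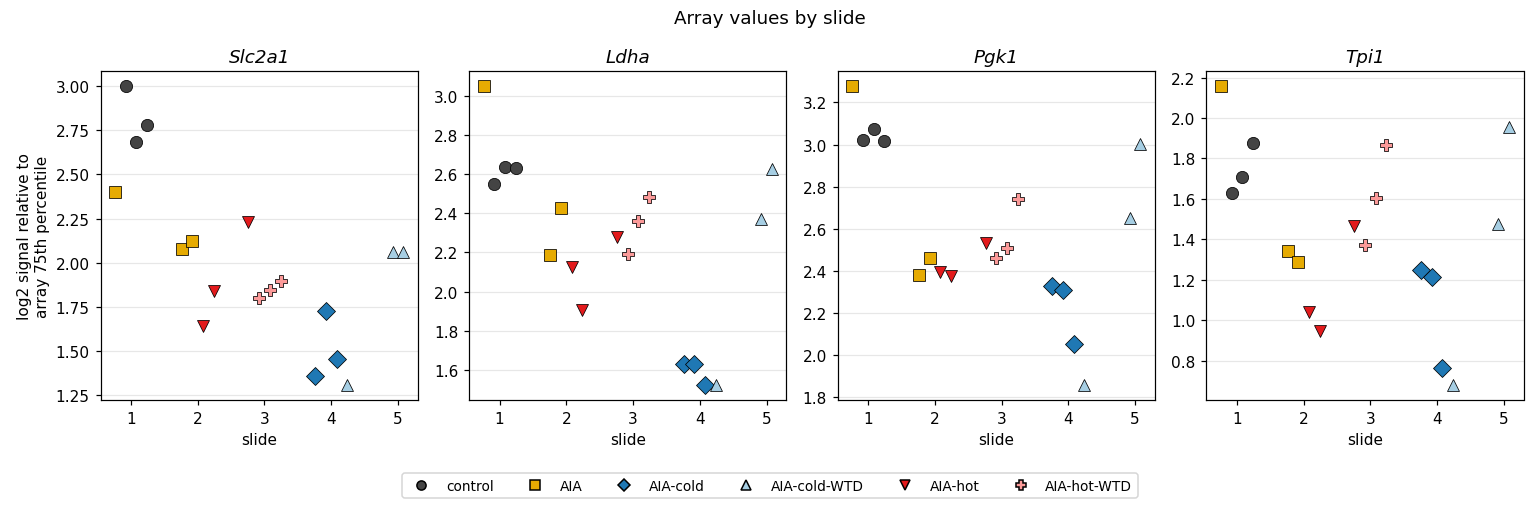
Log2 signal relative to the 75th percentile of the array (vertical axis) of Slc2a1, Ldha, Pgk1 and Tpi1 on each array, by slide (horizontal axis), with shape and colour for the group. Ldha lies between 1.52 and 1.63 on slide 4, and the AIA-cold-WTD arrays of slide 5 read 2.37 and 2.63; for Slc2a1 the 3 controls on slide 1 sit above the AIA array beside them.

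The effect of WTD on these genes was asked within each form of the model. In AIA-cold-WTD minus AIA-cold, 0 of the 10 genes were called and 1 had an unadjusted p under 0.05 by limma, against 0.00847% of all genes called and 6.08% with such a p. Ldha had the largest difference, 0.58 (95% confidence interval 0.05 to 1.12, adjusted p = 0.78), followed by Pkm at 0.49 (0.00 to 0.98) and Gapdh at 0.40 (-0.04 to 0.84). Pkm read 3.83, 3.63 and 3.73 on the AIA-cold-WTD arrays and Gapdh 5.64, 5.62 and 5.78, above all AIA-cold arrays for both genes. 2 of the 10 genes were higher without overlap, against 7.68% of all genes.

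For Slc2a1, Aldoa, Tpi1, Pgk1 and Ldha the AIA-cold-WTD arrays were split by slide. In all, 8 of the 10 genes had both replicates of slide 5 above all AIA-cold arrays, as had 19.5% of all genes, and 7 of the 10 had replicate 1 not above the highest AIA-cold array, as had 59% of all genes. Both counts include Hk2, which was near background and not detected on replicate 1. Hk1 and Pfkp did not split this way, with 3.02 and 0.08 on replicate 1 against at most 2.71 and 0.05 on the others. Ldha read 1.52 on replicate 1, which shared slide 4 with the AIA-cold arrays, and 2.37 and 2.63 on replicates 2 and 3 of slide 5. Pgk1 read 1.86 against 2.65 and 3.00, Tpi1 0.68 against 1.48 and 1.95, and Slc2a1 1.30 against 2.06 and 2.06. On slide 4 alone, replicate 1 minus the mean of the AIA-cold arrays was -0.070 for Ldha, -0.37 for Pgk1, -0.40 for Tpi1, -0.14 for Aldoa and -0.21 for Slc2a1, where the pooled differences were 0.58, 0.27, 0.29, 0.35 and 0.30. Pkm and Gapdh were higher in both views, at 0.59 and 0.36 on slide 4. Replicate 1 also had the lowest adipocyte mean of the 18 arrays, 2.22, where the AIA-cold arrays lay between 3.94 and 5.13 and its fellows at 5.19 and 5.04. The part of slide or of fat in the split was not tested. The titles also give replicate 1 another letter than replicates 2 and 3, and the 3 AIA-hot-WTD arrays have a letter each. The labels do not explain these letters, so whether the arrays of a WTD group had the same treatment in every respect is not known.

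In AIA-hot-WTD minus AIA-hot, again 0 of the 10 genes were called and 0 had an unadjusted p under 0.05 by limma. Over the whole array 0 genes were called and 540 (2.29%) had an unadjusted p under 0.05. The largest pooled differences were 0.46 for Tpi1 (95% confidence interval -0.17 to 1.10) and 0.40 for Aldoa (-0.29 to 1.08). Slc2a1 differed by -0.06 (-0.50 to 0.38) and Ldha by 0.24 (-0.29 to 0.78). On slide 3 alone, the AIA-hot-WTD mean minus AIA-hot replicate 3 was 0.15 for Tpi1, 0.13 for Aldoa, 0.07 for Ldha and -0.38 for Slc2a1. It was 0.37 for Pkm and 0.30 for Gapdh, where the pooled differences were -0.02 and 0.01. The ranking thus depended on the slides used. Whether WTD acted unequally on the cold and the hot model was tested as an interaction, which was called for 0 of the 10 genes by limma, with 0 at an unadjusted p under 0.05 (4.19% of all genes). The pooled interaction was largest for Pkm, at 0.51 (-0.19 to 1.21, adjusted p = 0.99), and was 0.34 (-0.42 to 1.10) for Ldha. With the slide as a fixed block, 7 of the 10 genes kept their sign. Pkm was then at 0.22, while Ldha turned to -0.14 and Pgk1 from 0.13 to -0.41. Tpi1 went from -0.17 to -0.55. That fit rests on AIA-cold-WTD replicate 1 and AIA-hot replicate 3.

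The WTD groups were also set against control. In AIA-cold-WTD minus control 0 of the 10 genes were called by limma (0.0297% of all genes) and 2 had an unadjusted p under 0.05 (15.1%). Slc2a1, Gapdh, Pgk1 and Pkm, 4 of the 10, were lower there without overlap, against 9.83% of all genes. In AIA-hot-WTD minus control 0 of the 10 were called by limma (0.0805% of all genes) and 2 had an unadjusted p under 0.05 (13.5%). There Slc2a1, Gapdh, Pgk1 and Ldha were lower without overlap, against 11.3% of all genes. The 9 genes other than Hk2 were below 0 in both comparisons, where the median over all genes was -0.04 and -0.06. In the fit with the slide as a block, Aldoa, Tpi1, Gapdh, Pgk1, Pkm and Ldha were above 0 in AIA-hot-WTD minus control. AIA-cold-WTD shares no chain of slides with control.

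Around these 10 genes, 8 lists of the wider pathway were followed, with 80 of 92 genes measured. None of the 80 was called in any of the 11 comparisons by limma. In AIA-cold minus control, where 18.7% of all genes had an unadjusted p under 0.05, 19 of the 80 did, and the smallest adjusted p was 0.089. Of the 14 measured of 16 other glycolytic enzymes, 11 were below 0 in that comparison, with a median of -0.42 against -0.04 over all genes. The largest difference among them was -1.62 for Pgam2, the muscle phosphoglycerate mutase, and the aldolase Aldoc differed by -0.99. Pgam2 had an SE of 1.20, and the mean of the skeletal muscle genes ran from -1.15 to 0.62 in control and from -2.13 to -0.77 in AIA-cold. The part of muscle in it was not tested.

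Among 10 measured of 12 other glucose and lactate carriers, 6 were below 0 in AIA-cold minus control, and the largest difference was -1.95 (SE 0.76, adjusted p = 0.19 by limma) for Slc16a3, the lactate exporter MCT4. Next came -0.84 for Slc2a4, the insulin-responsive GLUT4, and -0.73 for Slc2a8. Of the 13 genes of pyruvate entry into mitochondria, 6 were below 0. The largest difference was 2.61 (SE 0.70, adjusted p = 0.089) for Pdk4, a kinase that shuts off pyruvate dehydrogenase. The 3 measured enzymes that make or break down fructose 2,6-bisphosphate, the activator of phosphofructokinase, were all above 0, led by Pfkfb3 at 1.42 (SE 0.80, adjusted p = 0.35 by limma).

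The pentose phosphate genes had 4 of 6 below 0, with Tkt at -0.98 (adjusted p = 0.21 by limma). Gluconeogenesis had 4 of 7 below 0, with Pck1 at 2.78 (adjusted p = 0.18) and Fbp2 at -2.14. The 19 measured hypoxia genes outside glycolysis had 9 below 0 and a median of 0.07, with Bnip3 at 1.36 (adjusted p = 0.20) and Adm at 0.82 (adjusted p = 0.19) furthest from 0. Of the 9 measured regulators of glycolytic genes, 3 were below 0. The largest difference there was 1.17 (adjusted p = 0.13) for Txnip, a protein that restrains glucose uptake.

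Gapdh and Pgk1 are in common use as reference genes, so their spread was set beside 12 others of that use. The mean of the 12 ran from 3.57 to 3.86 over the arrays. Gapdh ran from 5.22 to 6.39, an SD of 0.33 over 18 arrays, and Pgk1 had an SD of 0.38. Of the 12, 10 had a smaller SD than Gapdh, from 0.12 for Rplp0 and Tbp to 0.30 for Polr2a, and the highest SD was 0.47, for Sdha. The median SD over all genes was 0.32. Slc2a1, Gapdh, Pgk1 and Ldha were each printed 10 times per array, and the SD among spots of 1 array lay between 0.02 and 0.09. That spread leaves out labelling, hybridisation and slide.

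The genes whose levels were most like those of Slc2a1 over 18 arrays were Stub1 (Pearson r = 0.89), Slc1a1 (0.88), Papss2 (0.87), Nr2f6 (0.87), Gstp1 (0.87), Pgpep1 (0.86), Sod3 (0.86) and the glycolytic mutase Pgam1 (0.86). Of these, Papss2 was called lower in AIA-cold than in control, by a log2 difference of -0.91 with an adjusted p of 0.014 by limma. Those most like Ldha were Anxa6 (0.94), the fatty acid synthase gene Fasn (0.94), Rgn (0.93), Parm1 (0.92), Slc25a10 (0.91), Aldoart2 (0.91), Cyc1 (0.91) and Nsdhl (0.91). Fasn had a log2 difference of -4.21 between AIA-cold and control (adjusted p = 0.069 by limma), the largest of the 16 named here. Slc2a1 and Ldha themselves had their highest mean in control and their lowest in AIA-cold. Genes picked for likeness to them on the same arrays lean the same way by that choice. Their differences are thus no separate evidence. Among the 10 genes themselves, Pgk1 stood at rank 14 of all genes for likeness to Ldha and at rank 32 for likeness to Slc2a1.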

How the data were processed

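Total RNA from knee synovium was amplified, labelled with Cy3 and hybridised to single-colour Agilent rat arrays, per the labels' protocols. The deposited scanner files hold spot intensity values from Agilent Feature Extraction 10.7, already background-subtracted, per the file headers and the submitters' processing notes, which also name limma. The authors' series table of the same arrays holds log2 values, as a comparison with the scanner intensity showed (r from 0.990 to 1.00 per array, column medians 5.40 to 5.42). How it was scaled is not given in the sources used here, and it served only as an alternative.

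The log2 of the processed signal minus the 75th percentile of its array was used. Outlier-flagged spots were left out, spots of a probe averaged, and a probe was kept where some group had it well above background on each of its 3 arrays. The brightest kept probe stood for a gene. limma 3.58.1 in R 4.3.3 was fitted to all 18 arrays with 1 mean per group (12 residual degrees of freedom), and p-values were Benjamini-Hochberg adjusted over all genes in each of 11 comparisons and called under 0.05. A fit on simulated data was tested first. The number of arrays limits the precision.

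The genes, the pathway and marker lists were chosen with earlier results of these data known. The named genes were the 10 genes, up to 3 per pathway list with the largest differences, and the 8 genes most like Slc2a1 and the 8 most like Ldha. Alternatives covered scaling, background, filter, probes, slide, arrays fitted, marker covariates, title numbers and each array left out. Groups given other treatments were not analysed here, and some list genes are not reported here.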

Additional observations from a re-analysis of the deposited data

How the results depend on the processing

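Titles carry numbers that recur across groups, but the labels do not explain them or say that they pair arrays. Of 19 same-numbered pairs of arrays from different groups, 7 correlated above 0.1 in their deviations from the group means (median 0.06). Of 116 such pairs with unlike numbers, 43 did (median 0.02). With the title number as a replicate block, an alternative added after seeing the data, 0 of the 10 genes were called in AIA-cold minus control (Slc2a1 at -1.24, limma adjusted p = 0.087), and 38 genes over the whole array. Slc2a1 stayed below control in AIA-cold under all 29 alternatives, with log2 differences from -1.42 to -0.96 and limma adjusted p from 0.0036 to 0.16, and kept its call under 23. In that comparison the number of the 10 genes called was 1, and leaving out single arrays gave 0 to 2. It was 0 with the slide as a random block and when only the groups compared were fitted, 2 with muscle and cartilage covariates (Slc2a1 and Pkm), and 4 with the adipocyte covariate added after seeing the data (Slc2a1, Ldha, Pgk1 and Pkm). In AIA-hot and in AIA-hot-WTD minus control it rose from 0 to 1 (Slc2a1) with the adipocyte covariate, and single arrays left out gave 0 to 1 in each. Over the whole array that covariate gave 152 of 23605 and 68 of 23606 genes called. The 1 with an array left out came without AIA-cold-WTD replicate 1, where 30 and 68 genes were called. In AIA-cold-WTD minus control it was 1 (Slc2a1) with quantile normalization, the authors' series table, no filter on dim probes and the adipocyte covariate. Over the whole array these settings called 101, 100, 3377 and 323 genes, of 35069 tested without the filter and 23606 in the others.

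Directions turned for Hk1 in AIA-cold minus control, at 0.039 with normexp background. Single arrays left out gave -0.38 (control replicate 2) to 0.028 (control replicate 1). With the slide as a fixed block, AIA-cold-WTD minus AIA-cold turned for Slc2a1 (-0.21), Aldoa (-0.14), Tpi1 (-0.40), Pgk1 (-0.37) and Ldha (-0.070). These are the values given above for slide 4 alone, with AIA-cold-WTD replicate 1 as the only treated array, since slide 5 held no AIA-cold array. With single arrays left out, Slc2a1 in AIA-hot-WTD minus AIA-hot ran from -0.19 without AIA-hot replicate 1 to 0.11 without AIA-hot replicate 3. The lowest value of all alternatives there was -0.38, with the slide as a fixed block, where AIA-hot replicate 3 alone stands for AIA-hot. The cause was not tested. The 126 genes called over the whole array in AIA-cold minus control (57 higher, 69 lower) became 222 with quantile normalization (130 higher, 92 lower), 227 with the series table (133 higher, 94 lower), 203 with normexp (77 higher, 126 lower), 206 of 35069 without the filter (46 higher, 160 lower), 575 with muscle and cartilage covariates, 934 with the adipocyte covariate, and 0 with the slide as a random block or only the groups compared. Leaving out single arrays gave 0 to 297, with 0 without AIA-cold replicate 2 and 1 without AIA-cold replicate 1. The median of all genes in this comparison was -0.21 with normexp and -0.24 without the filter, against -0.04. Under these alternatives 0 to 5 of the 80 pathway genes were called in a comparison, among them Pdk4, Pck1, Bnip3, Txnip and Slc2a4 in AIA-cold minus control with the adipocyte covariate. Signal over background limits Hk2, measured on 7 of 18 arrays.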
